A study of Mus musculus with 2 samples.

Results

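The BCL2 proteins, the caspases and the inhibitor of apoptosis proteins (IAPs) decide between survival and death inside a cell, and 35 of their genes were named for description here in the mouse marrow stromal line M210B4. The genes were chosen by symbol, with direct p53 targets left out. Of the 35, 34 had a probe set annotated with that gene alone, out of 22180 genes with such a probe set, and each gene was represented by its brightest one. Ripk1 had no probe set of its own and was not analysed here. The arrays compared M210B4 cells after 24 h with a CD84-activating antibody (clone 152-1D5) against M210B4 cells after 24 h with an IgG1 isotype antibody, both kept in medium with 2% serum. Each group was 1 culture on 1 Affymetrix Mouse Gene 2.0 ST array, so every difference below lies between 2 arrays and has no replicate check, standard error or p-value.

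In the mitochondrial pathway of apoptosis, guardians such as BCL2 and MCL1 hold the pore formers BAK and BAX in check. The BH3-only proteins sense damage or loss of growth factors and release that hold, after which cytochrome c leaves the mitochondria and activates the initiator caspase-9. Death receptors start a parallel route by gathering FADD and caspase-8, which FLIP (Cflar) restrains, and the IAPs block caspases or steer receptor signals towards survival. Bone marrow stromal cells are better known for supplying survival signals to blood cells than for dying readily themselves.

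The arrays held 41345 probe sets with median log2 values of 4.87 after anti-CD84 and 4.88 after IgG1. A gene was called detected when its value lay above 4.84 on at least 1 array, which is the 95th percentile over 1390 olfactory and vomeronasal receptor genes, a class with no known use in stroma. Of 12 stromal markers, 9 lay above that threshold on both arrays, among them Col1a1, Col1a2, Fn1 and Pdgfrb. These 9 had a median difference of 0.40, with 8 higher after anti-CD84, among them Cxcl12 (2.15-fold) and Pdgfra (1.89-fold), and their part in the members' differences was not tested. Of 11 measured haematopoietic markers 3 were detected, all close to the threshold, and Ptprc, the leukocyte marker CD45, was below it on both. Of 5 endothelial and 4 epithelial markers 3 each were detected, at 5.68 or less on both arrays, with median differences of -0.67 and -0.15 as measured. Pecam1, Cdh5 and Cdh1 were above the threshold only after IgG1, where they were higher. With both arrays required above the threshold, 1 endothelial marker was left, at 0.004, and 2 epithelial ones, at a median of 0.04. In bulk RNA a change in the number of cells of a type and a change in RNA per cell cannot be told apart.

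Of the 34 measured members, 31 were detected, 27 of them on both arrays. By the values as measured, 6 of the 31 were 1.5-fold or more higher after anti-CD84 and 2 lower, while 23 lay within 1.5-fold. The higher members were 19.4% of those detected and the lower ones 6.45%, where 10.7% of all 13282 detected genes were 1.5-fold higher and 6.4% were 1.5-fold lower. With values under the detection threshold set to it, 5 were higher and 1 lower, beside 9.16% and 4.13% of all detected genes, since Bcl2a1a and Bmf no longer counted. The 6 members that were higher as measured were Bcl2l11, Casp8, Casp2, Casp9, Casp12 and Bcl2a1a, and the 2 lower ones Birc2 and Bmf. Casp12, Bcl2a1a and Bmf were below the detection threshold on 1 array and had mean values under 6, where 12.2% of detected genes were 1.5-fold higher and 13.3% lower. Of the 27 members detected on both arrays 4 were higher and 1 lower, where 9.57% and 3.89% of all 11759 such genes were. At 2-fold, 1 member was higher and 0 lower as measured, where 1.98% of detected genes were higher and 1.43% lower. That member was Bcl2a1a, and from the detection threshold 0 members were 2-fold apart. The members had a median difference of 0.10 on the log2 scale, beside 0.09 for all detected genes.

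**Figure D1:**
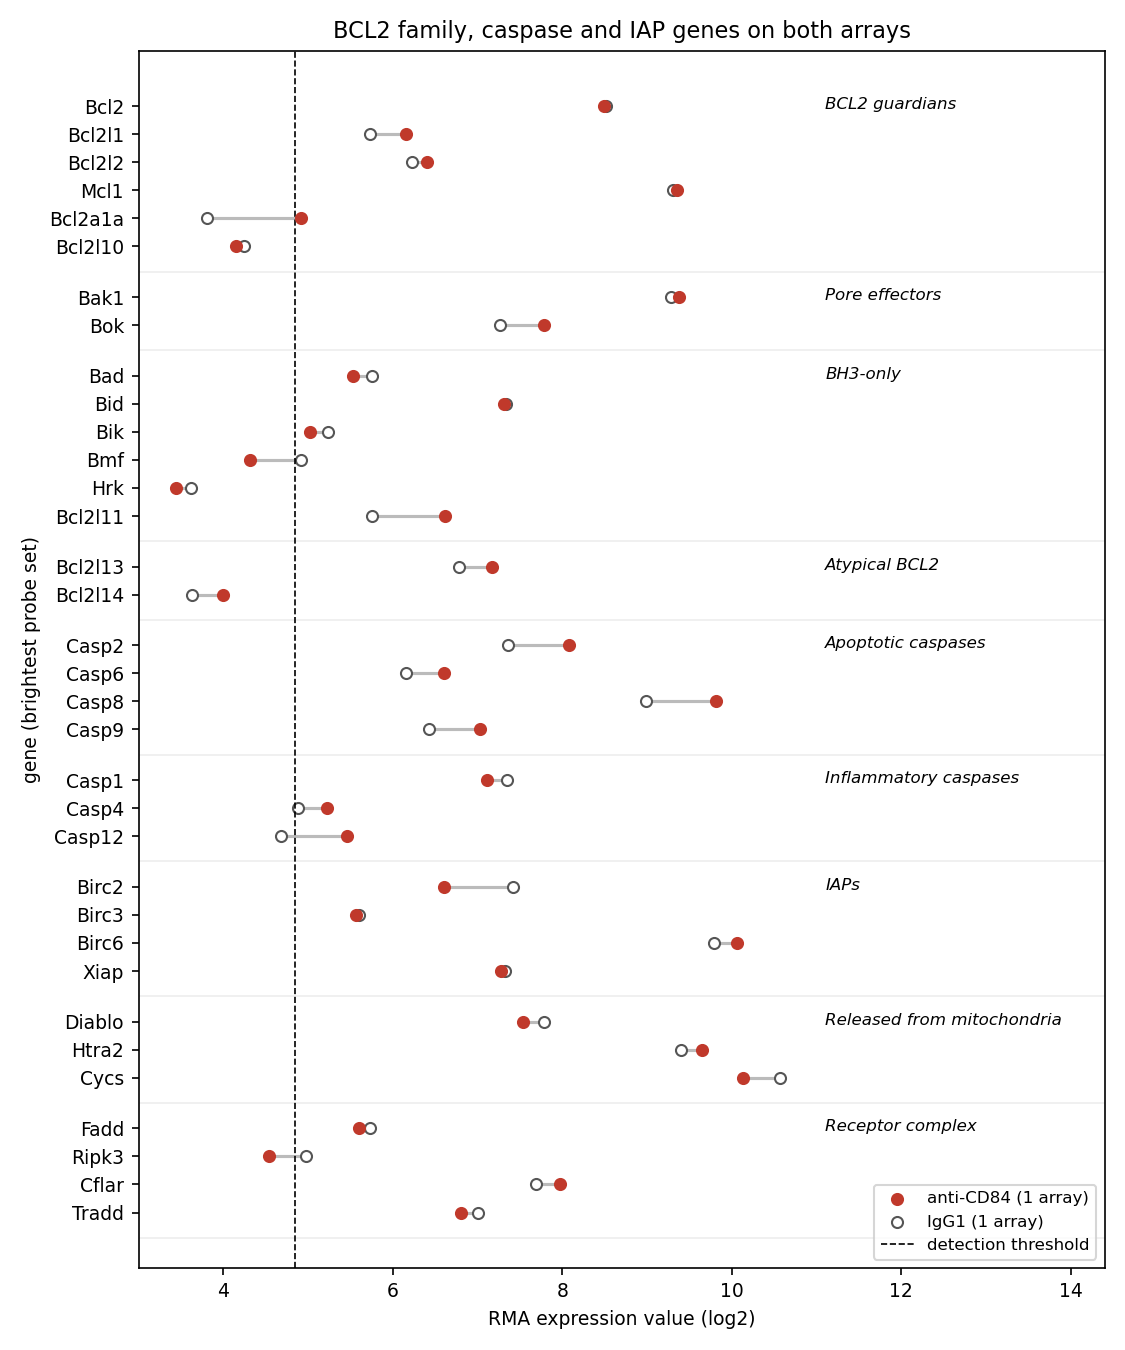
Log2 expression value of each of the 34 measured members (horizontal axis) on the anti-CD84 array (filled) and the IgG1 array (open), 1 array each, grouped by role; the dashed line is the detection threshold of 4.84. All 4 apoptotic caspases lie to the right after anti-CD84 and Birc2 to the left, while Bcl2, Mcl1, Birc3 and Xiap nearly coincide; levels of different genes come from different probes and are not compared.

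The 4 apoptotic caspases shared a direction: all were higher after anti-CD84, and 3 of them passed 1.5-fold. Casp8, the initiator that death receptors recruit, had log2 values of 9.81 after anti-CD84 and 8.99 after IgG1, which makes it 1.77-fold higher. Casp2, an initiator linked to DNA damage and abnormal cell division, was at 8.08 after anti-CD84 and 7.36 after IgG1, or 1.65-fold higher. Casp9, the initiator of the mitochondrial pathway, was at 7.03 after anti-CD84 and 6.43 after IgG1, or 1.52-fold higher. These 3 initiators thus belong to separate entry routes into apoptosis. Casp6, which acts downstream as an executioner, had values of 6.60 after anti-CD84 and 6.16 after IgG1 and stayed within the threshold at 1.36-fold. The median difference of the 4 was 0.66. In the range of mean level from 6 to 8, which holds Casp2, Casp6 and Casp9, 13.8% of 4621 detected genes were 1.5-fold higher, and above 8, where Casp8 lies, 6.19% of 4412. All 4 stayed positive when the arrays were rescaled, but Casp9 then dropped below 1.5-fold, to between 0.48 and 0.52 on the log2 scale.

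The inflammatory caspases, which serve inflammasomes and pyroptosis more than apoptosis, did not share 1 direction. Casp12 had values of 5.46 after anti-CD84 and 4.68 after IgG1, the second of them under the detection threshold. Counted from the detection threshold it was at least 1.54-fold higher. Casp4, which in the mouse senses cytosolic endotoxin, was at 5.23 after anti-CD84 and 4.88 after IgG1, a difference of 0.34 near the detection threshold. Casp1, which matures interleukin-1 beta, lay the other way at 7.11 after anti-CD84 and 7.35 after IgG1. Casp1, Casp4 and Casp12 are consecutive protein-coding genes on chromosome 9 in the RefSeq order, and Casp1 had a negative difference where Casp4 and Casp12 had positive ones. Over all 7 caspases, 6 had a positive difference and 4, Casp12 among them, were 1.5-fold higher. Of all detected genes 59.1% had a positive difference and 10.7% were 1.5-fold higher.

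Of the 5 detected BH3-only members, Bcl2l11 was higher after anti-CD84 and the other 4 had negative differences. Bcl2l11 encodes BIM, a BH3-only protein able to bind every major guardian. Its log2 value was 6.61 after anti-CD84 and 5.75 after IgG1, a 1.82-fold higher level and the largest difference among the 27 members detected on both arrays. Bad, which growth factor signalling keeps phosphorylated and inactive, was at 5.53 after anti-CD84 and 5.75 after IgG1, and Bik was at 5.03 after anti-CD84 and 5.23 after IgG1. Bid, the substrate through which Casp8 reaches the mitochondria, was at 7.31 after anti-CD84 and 7.34 after IgG1, so its level was nearly equal on the arrays. Bmf was below the detection threshold after anti-CD84, at 4.31, against 4.92 after IgG1, and counted from there it was at least 1.06-fold lower. Hrk was below the threshold on both arrays, at 3.45 after anti-CD84 and 3.62 after IgG1. The 5 detected BH3-only members, Bmf included, had a median of -0.21 as measured. Bbc3 (PUMA) and Pmaip1 (NOXA), BH3-only genes left out of the members as p53 targets, were 1.53-fold and at least 1.09-fold higher, Pmaip1 being below the detection threshold after IgG1.

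The guardians were mostly level. Mcl1, a short-lived guardian on which many blood cells depend, was at 9.35 after anti-CD84 and 9.30 after IgG1, and Bcl2 was at 8.49 after anti-CD84 and 8.51 after IgG1. Bcl2l2 (BCL-W) was at 6.40 after anti-CD84 and 6.22 after IgG1. Bcl2l1 (BCL-XL) differed more, at 6.15 after anti-CD84 and 5.73 after IgG1, or 1.34-fold higher. None of these 4 reached 1.5-fold, and the sign of Mcl1 turned negative under each of the 3 rescalings. Bcl2a1a, a guardian known as an NF-kB target, was at 4.91 after anti-CD84 and 3.81 after IgG1. Its measured difference of 1.10 rests on a value below the detection threshold, so that only an at least 1.05-fold higher level can be given. Probe sets annotated with Bcl2a1a together with its near-identical paralogues lay below the threshold on both arrays, so its signal is uncertain. Bcl2l10 was below it on both arrays, at 4.15 after anti-CD84 and 4.24 after IgG1.

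The pore effectors and the atypical BCL2 genes were within 1.5-fold. Bok was at 7.79 after anti-CD84 and 7.27 after IgG1, or 1.43-fold higher, and Bak1 at 9.38 after anti-CD84 and 9.28 after IgG1. Bcl2l13, a mitochondrial outer membrane protein for which roles in death and in mitophagy have been described, was at 7.17 after anti-CD84 and 6.78 after IgG1. It neighbours Bid on chromosome 6, with 0 protein-coding genes between them, and Bid had a difference of -0.03 where Bcl2l13 had 0.39. Bcl2l14 was below the detection threshold on both arrays, at 3.99 after anti-CD84 and 3.63 after IgG1.

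Of the 4 IAP genes, Birc2 alone passed 1.5-fold, and it did so downwards. Birc2 encodes cIAP1, a ubiquitin ligase that marks RIPK1 at the TNF receptor and restrains the non-canonical NF-kB pathway. It was at 6.60 after anti-CD84 and 7.42 after IgG1, or 1.76-fold lower, the most negative difference among the members, whereas 4.52% of detected genes with a mean level from 6 to 8 were 1.5-fold lower. Its paralogue and direct neighbour on chromosome 9, Birc3, which encodes cIAP2, was at 5.56 after anti-CD84 and 5.60 after IgG1. The differences of these neighbours were thus -0.82 and -0.03. Xiap, the direct caspase inhibitor, was at 7.27 after anti-CD84 and 7.32 after IgG1. Birc6, a giant ubiquitin-conjugating IAP, was at 10.06 after anti-CD84 and 9.78 after IgG1, and a second, dimmer probe set of it differed by 0.62 in the same direction.

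The windows of 250 bases before the outermost RefSeq start of the 5 members past 1.5-fold on both arrays are printed to show whether they share promoter letters, with the neighbours Cflar and Birc3 beside them. Coordinates are those of GRCm38.p6, sequences run 5′ to 3′ on the gene's own strand, and capitals mark matches to the motifs named after them. Casp8 is at chr1:58802252-58802501, plus strand, Cflar at chr1:58711241-58711490, plus strand, Casp2 at chr6:42264735-42264984, plus strand, Casp9 at chr4:141793362-141793611, plus strand, Bcl2l11 at chr2:128125788-128126037, plus strand, Birc2 at chr9:7837058-7837307, minus strand, and Birc3 at chr9:7873171-7873420, minus strand.
Casp8: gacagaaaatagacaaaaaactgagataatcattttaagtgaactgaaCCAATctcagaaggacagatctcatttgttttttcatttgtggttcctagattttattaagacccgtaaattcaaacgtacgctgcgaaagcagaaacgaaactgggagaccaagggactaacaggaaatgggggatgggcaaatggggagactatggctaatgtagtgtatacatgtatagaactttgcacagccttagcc
Cflar: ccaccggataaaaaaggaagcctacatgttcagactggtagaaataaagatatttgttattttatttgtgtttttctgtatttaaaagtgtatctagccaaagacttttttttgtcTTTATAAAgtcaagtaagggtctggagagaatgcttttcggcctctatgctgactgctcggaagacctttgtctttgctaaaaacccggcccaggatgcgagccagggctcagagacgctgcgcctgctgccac
Casp2: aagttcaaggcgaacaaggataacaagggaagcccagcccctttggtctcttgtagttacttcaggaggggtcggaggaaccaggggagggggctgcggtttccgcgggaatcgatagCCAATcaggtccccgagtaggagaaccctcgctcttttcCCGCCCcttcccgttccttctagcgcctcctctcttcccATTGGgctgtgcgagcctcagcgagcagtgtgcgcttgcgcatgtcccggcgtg
Casp9: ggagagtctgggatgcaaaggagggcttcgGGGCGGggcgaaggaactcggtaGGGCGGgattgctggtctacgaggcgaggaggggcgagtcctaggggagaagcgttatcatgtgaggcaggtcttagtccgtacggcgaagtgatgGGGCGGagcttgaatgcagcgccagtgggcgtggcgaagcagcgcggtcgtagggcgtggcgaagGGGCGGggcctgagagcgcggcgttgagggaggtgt
Bcl2l11: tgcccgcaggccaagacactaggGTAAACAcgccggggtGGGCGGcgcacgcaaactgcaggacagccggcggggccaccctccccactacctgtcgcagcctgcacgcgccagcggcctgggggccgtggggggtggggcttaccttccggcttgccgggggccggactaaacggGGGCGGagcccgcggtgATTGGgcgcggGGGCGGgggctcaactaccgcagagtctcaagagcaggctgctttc
Birc2: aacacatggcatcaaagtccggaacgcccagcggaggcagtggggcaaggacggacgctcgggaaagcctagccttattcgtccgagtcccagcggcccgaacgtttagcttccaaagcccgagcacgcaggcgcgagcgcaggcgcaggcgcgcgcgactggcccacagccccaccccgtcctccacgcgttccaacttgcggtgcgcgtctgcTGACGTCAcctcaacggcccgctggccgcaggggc
Birc3: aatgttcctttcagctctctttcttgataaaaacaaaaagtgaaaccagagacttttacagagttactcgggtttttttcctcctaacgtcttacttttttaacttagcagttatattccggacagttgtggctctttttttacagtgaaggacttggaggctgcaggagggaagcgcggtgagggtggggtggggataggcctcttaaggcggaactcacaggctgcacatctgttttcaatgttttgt

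A set of 9 motifs was searched on both strands in 1 such window per gene for 27025 genes, 31 of them among the 35 listed. They were the TATA box (TATAAA), the CCAAT box (CCAAT), the GC box (GGGCGG), the E-box (CACGTG), AP-1 (TGANTCA), the cyclic AMP response element (TGACGTCA), the FoxO core (GTAAACA), the NF-kB consensus and the p53 half-site. The GC box was in 19 of the 31 windows, beside 33.0% of all windows, and the CCAAT box in 8, beside 34.5%. The 3 caspase windows past the threshold had no motif of the 9 in common. Casp8 held a single CCAAT box and 39.6% G and C, Casp2 held 2 CCAAT boxes and 1 GC box, and Casp9 held 4 GC boxes with 66.0% G and C. The Bcl2l11 window, with 72.0% G and C, held 3 GC boxes, a CCAAT box and, from 227 to 221 bases before the start, the FoxO core that 3.06% of all windows hold. Casp4 was the other member with a FoxO core. The Birc2 window held a cyclic AMP response element from 35 to 28 bases before its start, a motif in 1.60% of all windows. Cycs was the other member with this element, while none of the 9 motifs was in the Birc3 window. Cflar held overlapping TATA box matches on opposite strands. Such matches describe letters only, and whether a factor binds there was not measured.

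Proteins released from mitochondria gave mixed differences, all within 1.5-fold. Cycs, cytochrome c, was at 10.14 after anti-CD84 and 10.57 after IgG1, or 1.35-fold lower. Of its 4 further probe sets, a bright one at 8.64 after anti-CD84 and 9.19 after IgG1 had the same sign, and the remaining 3, of which 2 carry identical values, differed by at most 0.03 in size. Cycs has many processed pseudogenes, so probes may share signal. Diablo (SMAC), which pulls IAPs off caspases, was at 7.54 after anti-CD84 and 7.79 after IgG1, and the protease Htra2 at 9.65 after anti-CD84 and 9.40 after IgG1. Thus Cycs and Diablo were lower and Htra2 higher, with the differences at -0.44, -0.25 and 0.25.

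At the death receptor complex, Casp8 was higher beside adaptors that were not. Fadd, which links receptors to Casp8, was at 5.60 after anti-CD84 and 5.74 after IgG1, and Tradd, the adaptor of TNF receptor 1, at 6.81 after anti-CD84 and 7.01 after IgG1. Cflar, which encodes the Casp8 inhibitor FLIP and is the direct neighbour of Casp8 on chromosome 1, was at 7.97 after anti-CD84 and 7.69 after IgG1. Its difference of 0.28 had the same sign as that of Casp8 and was smaller. Ripk3, the kinase that starts necroptosis, was below the detection threshold after anti-CD84, at 4.54, against 4.98 after IgG1, so that an at least 1.10-fold lower level is all that can be given.

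The comparison of pro-death with pro-survival members showed medians that lay close together. Guardians, IAPs and Cflar were counted as pro-survival, and pore effectors, BH3-only genes, apoptotic caspases, the proteins released from mitochondria, Fadd and Ripk3 as pro-death. The 16 detected pro-death members had a median difference of 0.03 and the 10 detected pro-survival members one of 0.11, beside 0.09 for all detected genes. Of the pro-death members 8 were positive and 8 negative, with 4 at least 1.5-fold higher and, as measured, 1 lower (Bmf, under the detection threshold after anti-CD84). Those detected on both arrays ran from -0.44 (Cycs) to 0.86 (Bcl2l11), and 0 of them were 1.5-fold lower. Of the pro-survival members 6 were positive and 4 negative, with 1 at least 1.5-fold lower and, as measured, 1 higher (Bcl2a1a, under the detection threshold after IgG1). Those detected on both arrays ran from -0.82 (Birc2) to 0.42 (Bcl2l1), and 0 of them were 1.5-fold higher. Beside these counts, 59.1% of all detected genes had a positive difference, 10.7% were 1.5-fold higher and 6.4% lower. Among all genes detected on both arrays 9.57% were higher and 3.89% lower. The 5 detected dual or inflammatory members (Bcl2l13, Casp1, Casp4, Casp12 and Tradd) had a median of 0.34. Without Casp12, which was below the detection threshold after IgG1, the 4 detected on both arrays had a median of 0.07, with 2 positive and 2 negative. The ranges of both sides overlapped. The order of the medians depended on how dim genes were treated. With both arrays required above the detection threshold, the 14 pro-death members had a median of 0.18 and the 9 pro-survival members one of 0.05. Within the BCL2 family alone the medians were -0.03 for 7 pro-death genes and 0.18 for 5 pro-survival genes, as measured. Only 6 and 4 of these were detected on both arrays. Bmf and Bcl2a1a were each above the detection threshold only on the array where they were higher, which widens the gap between these medians. The pro-death side differed by role as measured, with the apoptotic caspases at a median of 0.66 and the detected BH3-only members at -0.21. The BH3-only median counts Bmf as measured, though it was above the detection threshold only after IgG1, where it was higher. That median also leaves out the BH3-only p53 targets Bbc3 and Pmaip1, which were 1.53-fold and at least 1.09-fold higher.

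**Figure D2:**
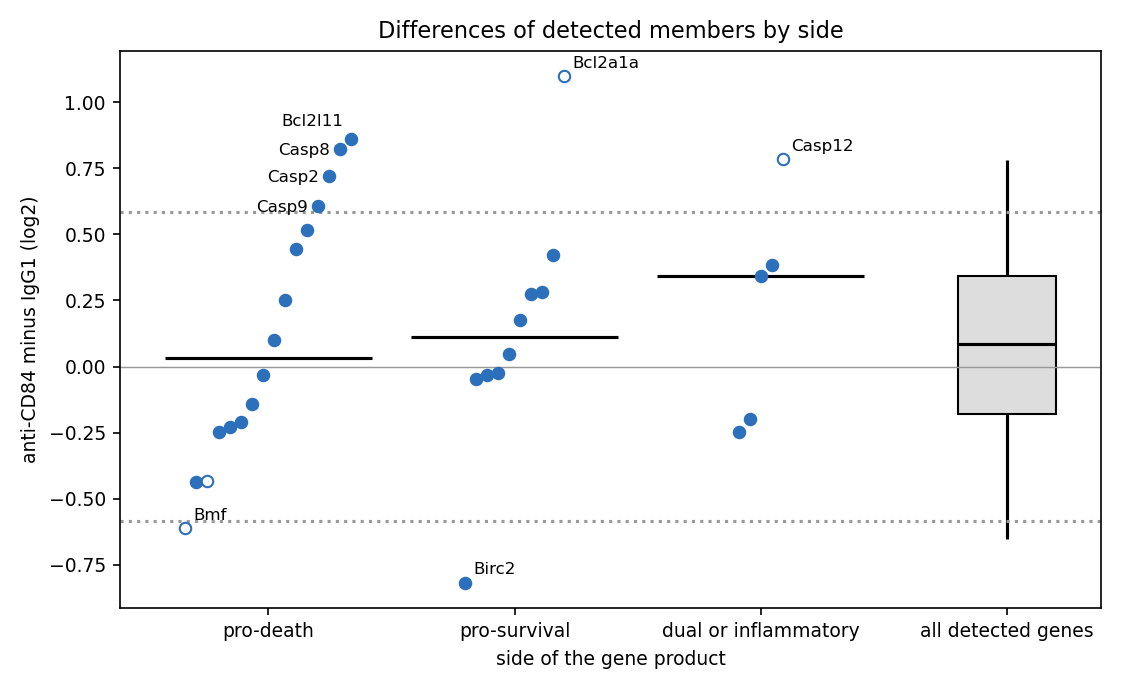
Difference in log2 value, anti-CD84 minus IgG1, of each detected member by side; horizontal bars are medians, open points are genes below the detection threshold on 1 array, and dotted lines mark 1.5-fold. The box at the right spans the 25th to 75th percentile of all 13282 detected genes with whiskers from the 5th to the 95th; the medians of 0.03 for pro-death and 0.11 for pro-survival members lie near its median of 0.09.

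**Figure D3:**
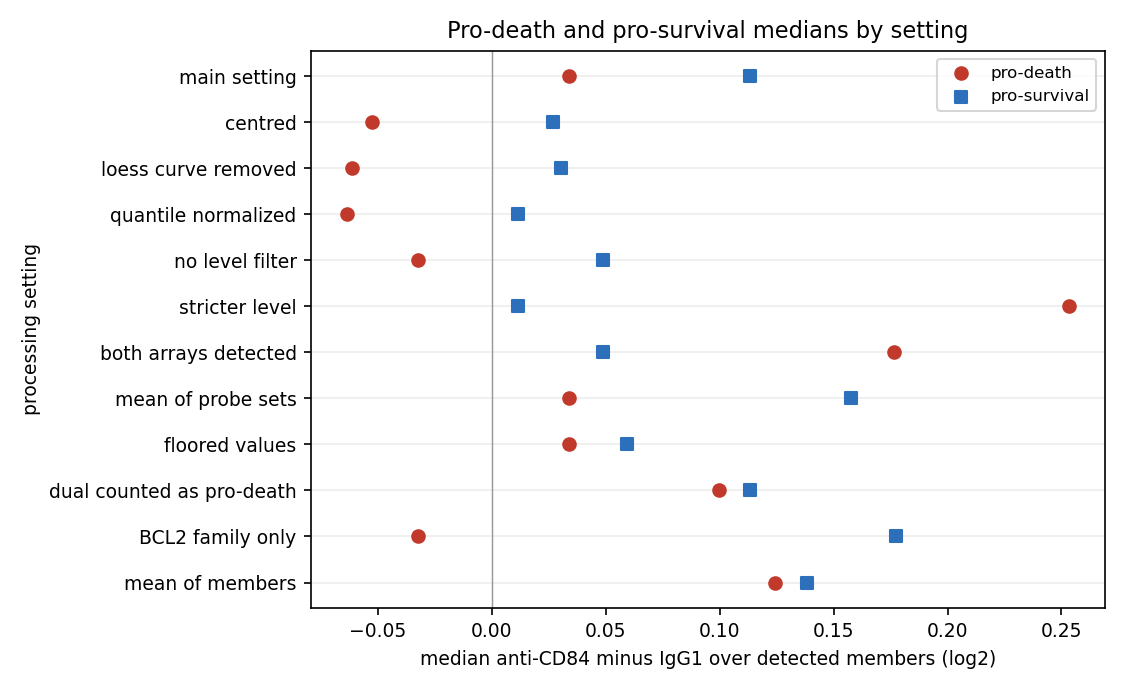
Median difference in log2 value, anti-CD84 minus IgG1, over detected pro-death (circles) and pro-survival (squares) members under each processing setting; the lowest row uses means. The pro-death median is below the pro-survival one in all settings except the stricter level (0.25 against 0.01) and both arrays detected (0.18 against 0.05).

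Set against the gene whose product opposes each of them, the pro-death genes again lay in both directions. A difference between 2 members does not move with a shift that is common to the whole array. In 11 opposing pairs with both genes above the detection threshold on both arrays, the log2 difference of the pro-death gene minus that of its opponent was positive in 7 and negative in 4, with a median of 0.30. For Bcl2l11 it was 0.89 against Bcl2, 0.81 against Mcl1 and 0.44 against Bcl2l1. It was 0.65 for Casp9 against Xiap and 0.54 for Casp8 against Cflar. In the other direction it was -0.65 for Bad against Bcl2l1 and -0.52 for Diablo against Birc6. Pairs that share a gene are not independent of each other, and 3 of the 7 positive ones share Bcl2l11. Bak1 was close to its guardian Mcl1 (0.05) and below Bcl2l1 (-0.32), while Htra2 (0.30) and Diablo (-0.20) lay on either side of Xiap.

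**Figure D4:**
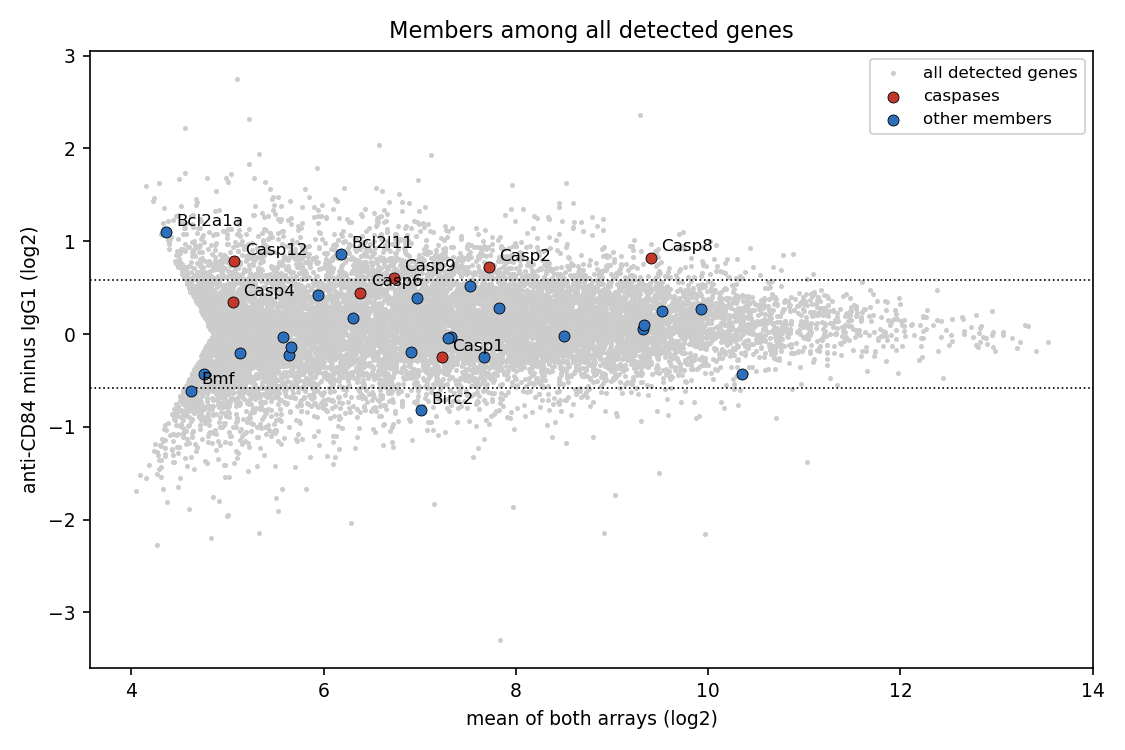
Difference in log2 value, anti-CD84 minus IgG1, against the mean of both arrays for all 13282 detected genes (grey), the 7 caspases (red) and the other 24 detected members (blue); dotted lines mark 1.5-fold. Casp8 stands near the upper edge at its level (0.82), Birc2 near the lower edge (-0.82), and Bcl2a1a and Bmf lie where values near the detection threshold scatter most.

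Other genes of the death pathways were mostly within 1.5-fold. Each list is counted whole, the genes named from it are those with the larger differences, and the counts stand beside 10.7% of all detected genes 1.5-fold higher and 6.4% lower. Of 10 detected apoptosome and executioner genes 2 were 1.5-fold higher and 1 lower as measured (median 0.13), and 0 lower from the detection threshold. Dffa, the inhibitor of the apoptotic nuclease, was at 6.42 after anti-CD84 and 5.40 after IgG1, or 2.03-fold higher, and Cradd, the adaptor that recruits Casp2, at 7.42 after anti-CD84 and 6.57 after IgG1, or 1.80-fold higher. Casp14, a keratinocyte caspase, was below the detection threshold after anti-CD84 and at least 1.25-fold lower. Cradd and Casp2, whose products bind each other, were thus both past 1.5-fold upwards. Of 9 detected death ligands and receptors 2 were higher and 1 lower (median 0.14). The death receptors Tnfrsf25 and Tnfrsf1a were 1.60-fold and 1.54-fold higher, at 7.06 and 9.68 after anti-CD84 against 6.38 and 9.06 after IgG1, and the ligand Lta, below the detection threshold after anti-CD84, was at least 1.95-fold lower. In the BCL2-related list 1 of 9 was higher, Bbc3 at 1.53-fold, and 1 lower, the co-chaperone Bag1 at 1.57-fold, with a median of 0.04.

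Further genes with IAP repeats, listed together with genes of ubiquitin signalling at receptor complexes, differed in both directions as 1 list. Of 16 detected genes 1 was 1.5-fold higher and 3 lower as measured, or 2 lower from the detection threshold, where 10.7% of all detected genes were higher and 6.4% lower, with a median of -0.09 that stayed negative under the rescalings but was 0.07 with the stricter level. Sharpin, an accessory subunit of the linear ubiquitin ligase, was at 9.17 after anti-CD84 and 8.37 after IgG1, or 1.74-fold higher. Otulin, which removes linear ubiquitin chains, was at 6.46 after anti-CD84 and 7.18 after IgG1, or 1.65-fold lower. Naip5, an inflammasome sensor of flagellin with IAP repeats, was below the detection threshold after anti-CD84 and at least 1.12-fold lower. The other subunits of that ligase, the catalytic Rnf31 and the accessory Rbck1, had differences of -0.15 and 0.37 and were named after their values were seen. The third lower gene, named after its values were seen, was Traf1, a partner of the cIAPs, at 4.96 after anti-CD84 and 5.57 after IgG1.

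Genes of necroptosis, pyroptosis and the mitochondrial membrane were mostly within 1.5-fold. Their counts stand beside 10.7% of all detected genes 1.5-fold higher and 6.4% lower. Of 10 detected necroptosis and pyroptosis genes 1 was higher and 0 lower (median 0.01, of either sign depending on the scaling). Pgam5, a mitochondrial phosphatase, was 1.59-fold higher, Zbp1, a sensor of Z-form nucleic acid, 1.32-fold higher, and the DNA sensor Aim2 1.40-fold lower. Of 13 mitochondrial gate and dynamics genes 1 was higher and 0 lower (median 0.14). Ppif, cyclophilin D of the permeability transition pore, was at 8.31 after anti-CD84 and 7.38 after IgG1, or 1.90-fold higher, with Slc25a5 at 1.29-fold and Mfn2 at 1.29-fold. The 9 detected genes that set the turnover of guardians, led by Mapk9 (1.43-fold higher), had 0 past 1.5-fold in either direction, with Marchf5 at -0.21 and Ubqln2 at -0.19.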

How the data were processed

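Total RNA (200 ng per sample) from 200000 cells per treatment was measured on 1 array per group. The authors deposited log2 values, 1 for each probe set on each array; RMA and Partek were used, per the submitters' processing notes, with no versions or settings. The log2 scale was inferred from the values (1.82 to 13.8). Of 41345 probe sets, 23521 have 1 symbol in GEO's platform annotation, 1814 have several and 16010 are unnamed there; the first kind was used. No order is read from values under the detection threshold, and folds of single genes with 1 array below it were counted from there ("at least"); counts and medians use the values as measured unless said otherwise. RMA compresses differences of dim probe sets.

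All 35 members could be named, and up to 3 detected genes per further list by absolute difference. Sides were assigned by the known function of each product. Members and lists were chosen with earlier results of these data known. With 1 array per group no test was possible. Alternatives were rescaling (median centring, a loess curve with span 0.4, quantile normalization), level filters, the probe set rule, a floor and the assignment of sides. Counting was tested on simulated data. Promoter sequences are RefSeq's (GRCm38.p6); 4 members, Bik, Bcl2l10, Htra2 and Tradd, had none in the table. Python 3.11.15, numpy 2.4.6, pandas 2.3.3, statsmodels 0.14.6 and matplotlib 3.10.9 were used.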

Additional observations from a re-analysis of the deposited data

How the results depend on the processing

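Of the 8 members past 1.5-fold as measured, Bcl2l11, Casp8, Casp2, Casp12 and Birc2 stayed past it under every alternative that gave them a value, among 8 tried on single genes; Casp9 did not under the 3 rescalings, Bmf under the loess curve and the floor, or Bcl2a1a under the floor. The level filters, the probe set rule and the floor could not change the values of Bcl2l11, Casp8, Casp2, Casp9 and Birc2. Each has a single probe set and lay above the detection threshold on both arrays, so only the 3 rescalings could move it. No member past 1.5-fold changed sign. The median of pro-death members was -0.0523 with differences centred, -0.0614 with the loess curve removed, -0.0633 after quantile normalization, -0.0323 with no level filter, 0.25 with the stricter level (6.88, the upper quartile of the table), 0.18 with both arrays detected and -0.0323 in the BCL2 family alone. The pro-survival median was 0.0115 after quantile normalization and 0.0115 with the stricter level. The pro-death median minus the pro-survival one, -0.08 in the main setting, was 0.24 with the stricter level, 0.13 with both arrays detected and -0.21 in the BCL2 family alone. That last value includes Bmf and Bcl2a1a as measured, each below the detection threshold on 1 array. With the stricter level, which tests fewer genes, 3 of 18 detected members were 1.5-fold higher, beside 9.92% of 7481 detected genes. Under the loess curve, the stricter level, both arrays detected and the floor, 1 member was 1.5-fold lower. In that order, 7.27%, 2.93%, 3.89% and 4.13% of all detected genes were 1.5-fold lower. Members 2-fold higher numbered 0 with the stricter level, both arrays detected and the floor. Over all detected genes the split of 1426 higher and 850 lower at 1.5-fold became 1023 and 1128 with differences centred. Where no construction is named, the cause was not tested. Leaving out a replicate was not run because each group has 1 array. No paired analysis was possible because each group has 1 array. The 2 arrays limit the precision, and members near the detection threshold rest on signal close to background.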

Other observations

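Probe sets annotated with a member together with another gene entered no comparison. The probe set shared by Gpr137 and Bad was at 6.69 after anti-CD84 and 6.85 after IgG1, with the same sign as the Bad probe set. The one shared by Diablo and B3gnt4 was below the detection threshold on both arrays, at 4.08 after anti-CD84 and 4.65 after IgG1. The probe set shared by Bcl2a1a and Bcl2a1b was at 3.54 after anti-CD84 and 4.31 after IgG1, and the one that also covers Bcl2a1d at 4.24 after anti-CD84 and 4.18 after IgG1. Both of these shared probe sets lay below the detection threshold on both arrays, so no order is read from their values.

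Casp2 is activated on a platform of Pidd1 and Cradd, a group singled out after the values were seen. Pidd1 was at 6.52 after anti-CD84 and 6.20 after IgG1, a difference of 0.32, beside 0.85 for Cradd and 0.72 for Casp2. The platform of Casp9 is Apaf1, which was at 8.34 after anti-CD84 and 7.76 after IgG1, or 1.49-fold higher, just inside the 1.5-fold threshold, beside 0.61 for Casp9 and -0.44 for Cycs, which triggers its assembly. On the receptor platform, Fadd had a difference of -0.14 beside 0.82 for Casp8.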
